A study of Rattus norvegicus with 23 samples.

Results

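The 32 genes described here make cholesterol and fatty acids or control their making. They were listed by name, 23 of the sterol pathway and 9 of the fatty acid pathway, and all 32 were among the 20301 genes of the deposited expression table. The table came from microglia, the resident macrophages of the brain, of 7-day-old Wistar rats of both sexes in a model of inflammation-sensitized hypoxic-ischemic (HI) brain injury. The study asked how systemic inflammation and HI, alone and together, change the microglial transcriptome. RNA sequencing was done on 23 samples in 4 groups.

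Sham rats (n = 6) had a neck incision under anesthesia, and no injection was stated for them. LPS rats (n = 5) received 0.1 mg/kg lipopolysaccharide, a bacterial cell wall component, into the peritoneum 4 h before a sham operation. NaCl/HI rats (n = 6) received saline, ligation of the left common carotid artery and 50 min of hypoxia at 8% oxygen. LPS/HI rats (n = 6) received the same lipopolysaccharide dose followed by ligation and hypoxia. Cells were taken 24 h after the operation with magnetic beads against CD11b/c, a surface marker that other myeloid cells carry too. Sham and LPS samples came from the entire brain of 1 pup, whereas each HI sample pooled the ipsilateral hemispheres of 2 pups. In the comparisons of HI with non-HI samples, the injury, the region and the pooling cannot be told apart.

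Cholesterol is built from acetyl-CoA through mevalonate, isoprenoid units, squalene and lanosterol, while fatty acids are built from the same acetyl-CoA through malonyl-CoA and are then elongated and desaturated. Both pathways are controlled by sterol regulatory element-binding proteins (SREBPs), membrane-bound transcription factors that the escort protein Scap carries to the Golgi for activation when sterols are scarce and that the Insig proteins hold back when sterols are plentiful. In the postnatal brain cholesterol is made locally, by astrocytes and above all by myelinating oligodendrocytes, and microglia take up and recycle the cholesterol of myelin debris.

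RefSeq promoter windows, from 250 bases before to 50 bases after the gene start on the GRCr8 assembly, were at hand for 25 of the 32 genes, and none was at hand for Sqle, Pmvk, Fdft1, Stard4, Fasn, Acaca or Elovl6. The windows were searched on both strands for TCACNCCAC, a form of the sterol regulatory element bound by SREBPs, for its shorter form CACNCCAC, which every longer match contains, for CCAAT, the box of the factor NF-Y, and for GGGCGG, the GC box of Sp1. NF-Y and Sp1 are known partners of SREBPs at sterol gene promoters. TCACNCCAC was in 0 of 19 sterol windows and 0 of 6 fatty acid windows, against 1.12% of all 33469 windows. CACNCCAC was in 15.8% of the sterol windows, those of Insig1, Acat2 and Ebp, in 33.3% of the fatty acid windows, those of Fads1 and Elovl5, and in 5.8% of all windows. CCAAT was in 78.9% of the sterol windows, 66.7% of the fatty acid windows and 37.5% of all windows. GGGCGG was in 84.2%, 66.7% and 33.1% of them, respectively. No match says only that these letters were not in this window, and a match is not a shown binding site.

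The 250 bases before the gene start are printed for the 3 genes with a window and the smallest adjusted p below, the kinase gene Mvk and the thiolase gene Acat2, which were highest in LPS, and the regulator gene Insig1, which was lowest in LPS/HI. They were chosen after the values were seen. Capitals mark CCAAT and GGGCGG on either strand, so that ATTGG and CCGCCC are the same boxes read on the other strand. The Mvk stretch (chr12:47819504-47819753, minus strand) held 5 NF-Y boxes and 2 GC boxes, the Acat2 stretch (chr1:50100590-50100839, plus strand) held 0 and 2, and the Insig1 stretch (chr4:8057770-8058019, minus strand) held 1 and 1.
Mvk: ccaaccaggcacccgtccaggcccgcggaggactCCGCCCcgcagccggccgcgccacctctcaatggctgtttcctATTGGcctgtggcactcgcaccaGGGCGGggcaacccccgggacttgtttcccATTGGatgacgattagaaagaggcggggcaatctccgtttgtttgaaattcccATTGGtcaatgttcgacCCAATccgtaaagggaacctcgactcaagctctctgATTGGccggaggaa
Acat2: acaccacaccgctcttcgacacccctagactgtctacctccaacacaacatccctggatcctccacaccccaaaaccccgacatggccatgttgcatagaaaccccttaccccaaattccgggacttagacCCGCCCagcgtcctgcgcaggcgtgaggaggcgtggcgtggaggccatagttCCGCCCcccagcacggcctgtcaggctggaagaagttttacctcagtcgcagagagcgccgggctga
Insig1: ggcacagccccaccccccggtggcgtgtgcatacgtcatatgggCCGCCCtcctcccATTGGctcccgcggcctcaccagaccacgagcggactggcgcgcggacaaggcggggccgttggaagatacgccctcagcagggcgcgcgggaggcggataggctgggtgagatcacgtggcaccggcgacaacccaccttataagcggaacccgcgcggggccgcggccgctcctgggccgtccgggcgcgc

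All values below are the deposited log2 values, variance-stabilized and corrected for 3 surrogate variables by the authors. They are shrunken toward each gene's mean, so that they understate differences of weakly expressed genes, and they are not scaled to gene length, so that levels are compared between groups of samples and never between genes. Differences are on the log2 scale, first group minus second, with the standard error (SE) and the Benjamini-Hochberg adjusted p over all genes of 1 limma fit. A gene was called where its adjusted p was under 0.05. This is a wider rule than that of the study, which also asked for a fold change above 2; no member reached that fold in any comparison, and the differences described here are small throughout. In bulk RNA of this kind, fewer cells of a type and less RNA per cell cannot be told apart.

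Library medians ran from 7.75 to 7.82, and the read depth behind each value is unknown because the table holds no counts. Of 10 microglial markers, 9 had group means from 12.1 to 16.5, whereas Siglech had group means between -1.08 and -1.03. Markers of cells that make sterols were measurable too. The 12 oligodendrocyte lineage genes included Mbp, with group means from 10.1 to 11.1. Mog, of the same list, had group means from 3.29 to 3.94. NaCl/HI replicate 6 stood apart in that list, 1.19 above the list's overall mean. The 6 astrocyte genes included Aldoc, with group means from 10.3 to 10.8, and Gfap, with 10.6 to 11.5.

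In microglia of LPS rats compared with Sham, 3 of 23 sterol genes were called higher, Mvk, Dhcr7 and Ebp, and none lower. Across all genes 10.2% were called higher and 7.56% lower in this comparison, so that the share of sterol genes was close to that of the whole table. The sterol count was 7 with degrees of freedom not lowered for the surrogate variables and 1 in a fit of only the groups compared, where Dhcr7 (adjusted p = 0.0571) and Ebp (adjusted p = 0.0762) lost their calls. It was 1 without LPS replicate 4 and 5 without LPS replicate 5. At an unadjusted p under 0.05, 6 sterol genes were higher and 2 lower, against 15.8% and 16.1% of all genes. The median difference of the sterol genes was 0.02, with 15 of 23 above 0, against a median of -0.01 over all genes, 44.3% of which were above 0. Of the 9 fatty acid genes, 0 were called higher and 1 lower, Fasn, with a median difference of -0.01 and with 2 higher and 2 lower at an unadjusted p under 0.05. The count of fatty acid genes called was 3 with degrees of freedom not lowered, and 2 without the lowest 25% of genes, without NaCl/HI replicate 1 or without LPS/HI replicate 4.

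Mvk encodes mevalonate kinase, which phosphorylates mevalonate early in the pathway. Its log2 values in the LPS samples were 9.26, 9.26, 9.13, 9.17 and 9.15. In Sham they ran from 8.81 through a median of 8.86 to 8.93. Every LPS sample lay above every Sham sample, and the difference was 0.33 (SE 0.05, adjusted p = 0.000168, limma), a fold of 1.26 on this scale. In NaCl/HI the values ran from 8.76 through 8.88 to 8.98, again below all LPS samples, and in LPS/HI from 8.81 through 9.02 to 9.09. Mvk was thus highest in LPS, with LPS/HI between LPS and the other groups. The difference of LPS/HI from LPS, -0.20, was not called (SE 0.05, adjusted p = 0.0544), although the samples of these groups did not overlap, and neither was that of LPS/HI from Sham, 0.14 (SE 0.05, adjusted p = 0.0917).

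Dhcr7 encodes the reductase of the last step to cholesterol. Its values in LPS were 9.64, 9.63, 9.56, 9.88 and 9.58, and in Sham they ran from 9.34 through 9.37 to 9.58. The groups overlapped at their edge, with LPS replicate 4 far above the others, and the difference was 0.23 (SE 0.06, adjusted p = 0.0147). Without LPS replicate 4 it was 0.18 and no longer called (adjusted p = 0.0562). NaCl/HI ran from 9.24 through 9.42 to 9.52 and LPS/HI from 9.38 through 9.44 to 9.54, both wholly below LPS.

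Ebp encodes the sterol isomerase that moves a double bond in the ring. Its values in LPS were 7.79, 7.82, 7.80, 7.90 and 7.68, above all Sham samples, which ran from 7.48 through 7.61 to 7.65. The difference was 0.21 (SE 0.06, adjusted p = 0.0181), and without LPS replicate 4 it was 0.18 and not called (adjusted p = 0.0593). NaCl/HI ran from 7.64 through 7.74 to 7.89 and LPS/HI from 7.57 through 7.68 to 7.80. The mean of Ebp was lowest in Sham, and no pair of groups other than LPS and Sham differed by a called amount.

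**Figure D1:**
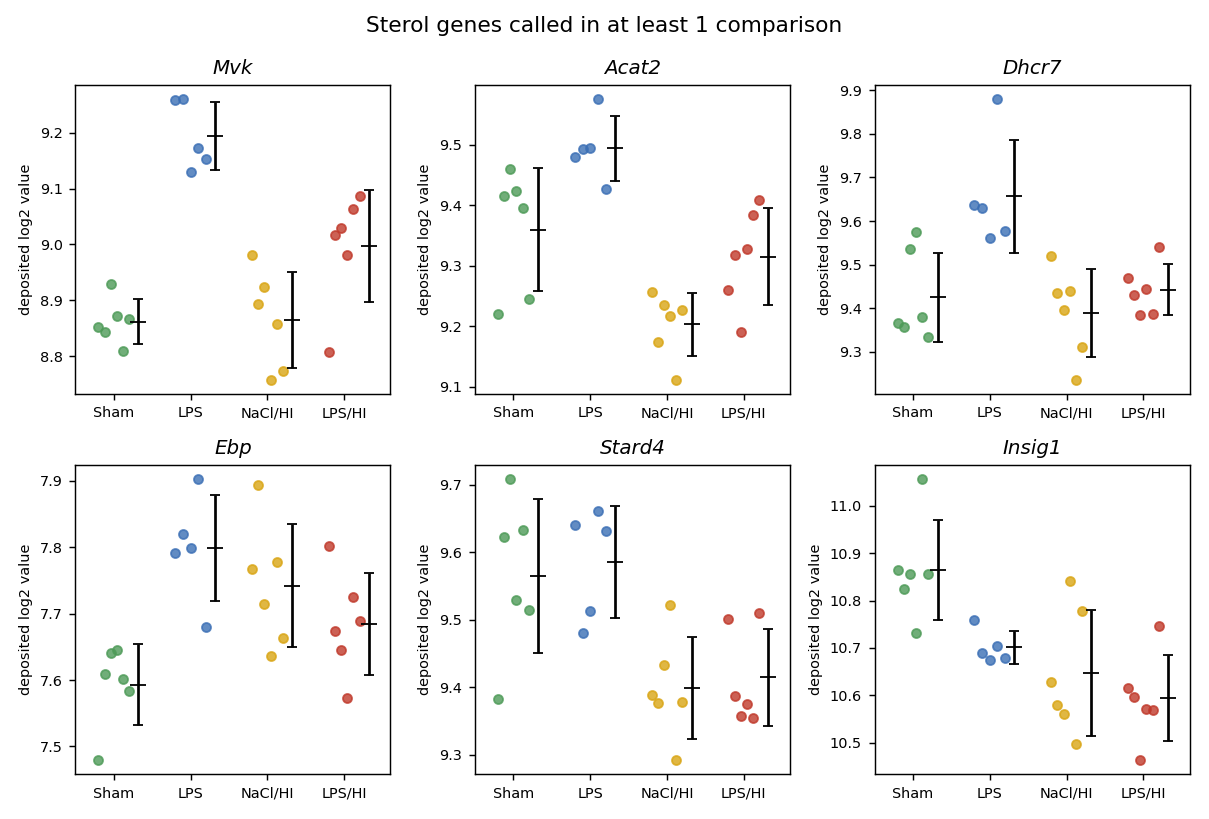
Deposited log2 values of the 6 sterol genes called in at least 1 comparison, by group (Sham, LPS, NaCl/HI, LPS/HI; each point is a sample, bars are mean and SD, vertical axes differ and do not start at 0). For Mvk all 5 LPS samples lie above all Sham and NaCl/HI samples, and for Insig1 the mean is highest in Sham and lowest in LPS/HI.

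The other sterol genes of the pathway did not all move with these 3. In the mevalonate arm, from the thiolase Acat2 to the farnesyl diphosphate synthase Fdps, 5 of 7 differences between LPS and Sham were above 0 and 2 below, from -0.21 for the isomerase gene Idi1 (SE 0.09, adjusted p = 0.134) to that of Mvk. The kinase gene Pmvk and the decarboxylase gene Mvd, which act directly after Mvk, had differences of 0.19 (SE 0.07, adjusted p = 0.0749) and 0.18 (SE 0.07, adjusted p = 0.069), not called. The 3 genes of the squalene and lanosterol steps, Fdft1, Sqle and Lss, lay between -0.03 and 0.01, with adjusted p of 0.809 or more. Of the 8 genes from lanosterol to cholesterol, 4 were above 0 and 4 below. The sterol transport gene Stard4 differed by 0.02 (SE 0.06, adjusted p = 0.845).

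Fasn encodes fatty acid synthase, which builds palmitate. Its values in LPS were 12.85, 12.95, 12.94, 12.93 and 12.94, and in Sham they ran from 13.03 through 13.11 to 13.17. Every LPS sample lay below every Sham sample, and the difference was -0.19 (SE 0.05, adjusted p = 0.0105). NaCl/HI ran from 13.01 through 13.09 to 13.21, also above all LPS samples, and LPS/HI from 12.87 through 12.94 to 13.13. Fasn was therefore at similar means in the groups given lipopolysaccharide, 12.92 ± 0.04 (SD, n = 5) for LPS and 12.96 ± 0.09 (SD, n = 6) for LPS/HI, but LPS/HI against Sham was not called (-0.14, SE 0.05, adjusted p = 0.0529).

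The carboxylase gene Acaca, which makes malonyl-CoA for Fasn, differed between LPS and Sham by -0.07 (SE 0.05, adjusted p = 0.334) and the elongase gene Elovl6 by -0.16 (SE 0.06, adjusted p = 0.0975). Acly, whose enzyme supplies acetyl-CoA from citrate, differed by 0.09 (SE 0.03, adjusted p = 0.0736), and Fads1, a desaturase of long polyunsaturated chains, by 0.15 (SE 0.05, adjusted p = 0.0559). These 4 did not pass the test, and their signs differed within the fatty acid genes.

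Wider lists of the pathways gave further calls in this comparison. Of 15 further sterol metabolism genes in the table, 4 were called higher and 2 lower, and of 26 further fatty acid genes 6 were called higher and 1 lower. The reductase gene Lbr, which also serves the sterol ring, was higher by 0.30 (SE 0.05, adjusted p = 0.000153), the cholesterol esterifying Soat1 by 0.34 (SE 0.06, adjusted p = 0.000224) and the mitochondrial thiolase Acat1 by 0.26 (SE 0.04, adjusted p = 0.000361). Among the lower ones, Ggps1, at the isoprenoid branch, differed by -0.22 (SE 0.05, adjusted p = 0.00582) and the lysosomal cholesterol exporter Npc1 by -0.15 (SE 0.04, adjusted p = 0.0167). Of the fatty acid genes, Tecr of chain elongation was higher by 0.26 (SE 0.04, adjusted p = 3.48e-05), Acsl5 of acyl-CoA formation by 0.30 (SE 0.04, adjusted p = 4.3e-05) and Acss2, which makes acetyl-CoA from acetate, by 0.36 (SE 0.07, adjusted p = 0.00173), while Elovl7 was lower (-0.24, SE 0.07, adjusted p = 0.0237). Of 6 genes on the side of the liver X receptors, which respond to sterol excess, 0 were called higher and 1 lower, Mylip (-0.19, SE 0.05, adjusted p = 0.00575).

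Markers of other cells were called in this comparison as well. Of the 6 astrocyte genes 2 were called higher, Aldh1l1 and Aldoc, and the list mean, each gene centred on its overall mean, ran from -0.13 to 0.23 in LPS and from -0.37 to 0.05 in Sham. The oligodendrocyte lineage mean ran from -0.39 to -0.06 in LPS and from -0.36 to 0.53 in Sham, and 0 of 12 of its genes were called by limma, with 1 at an unadjusted p under 0.05. Of the 10 microglial markers 4 were called lower, P2ry12, Cx3cr1 and Gpr34 among them. Of 6 neuronal genes 0 were called higher and 4 lower, led by Snap25 (-0.41, SE 0.10, adjusted p = 0.00591). Of 7 monocyte and macrophage genes 1 was higher, Plac8 (1.17, SE 0.13, adjusted p = 2.86e-06), and 2 were lower, Lyve1 (-0.83, SE 0.11, adjusted p = 3.39e-05) and Mrc1, and of 8 neutrophil genes 1 was higher and 2 were lower. Of 5 endothelial genes 1 was higher and 2 were lower. These counts stand beside the 10.2% and 7.56% of all genes called higher and lower. The part of these cells in the differences of Mvk, Dhcr7, Ebp and Fasn was not tested.

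HI with saline, compared with Sham, gave no call among the 32 genes, and 1 sterol gene, Insig1, without NaCl/HI replicate 4. Over all genes 0.00985% were called higher and 0% lower, that is 2 genes in all, so that the absence of calls says little about these genes. At an unadjusted p under 0.05, 1 sterol gene was higher and 5 lower, and 1 fatty acid gene was higher and 1 lower, in a limma fit, against 7.33% and 7.47% of all genes. After quantile normalization 80% of the called genes of the table were higher, against 100% without it, on few calls in both cases. The signs of the sterol genes were uneven, with 20 of 23 below 0 and a median of -0.09, against 53.6% of all genes below 0 and a median of -0.01. Idi1 had the lowest difference, -0.27 (SE 0.09, adjusted p = 0.204), followed by Insig1 with -0.22 (SE 0.06, adjusted p = 0.149) and the synthase gene Hmgcs1 with -0.20 (SE 0.07, adjusted p = 0.185). None of the 3 passed the test. The 9 fatty acid genes had a median of -0.02.

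In LPS/HI compared with Sham, 1 of 23 sterol genes was called, Insig1, which was lower, and 0 of 9 fatty acid genes. The sterol count was 4 after quantile normalization, 2 without the lowest 25% of genes and 6 with degrees of freedom not lowered for the surrogate variables. It was 2 without NaCl/HI replicate 2, 3 or 5 or Sham replicate 4, and 3 without LPS/HI replicate 1 or 6, NaCl/HI replicate 4 or Sham replicate 1. The fatty acid count was 1 with degrees of freedom not lowered, without the lowest 25% of genes, and without LPS/HI replicate 6 or NaCl/HI replicate 2, 3 or 4. Across all genes 5.3% were called higher and 3.48% lower. At an unadjusted p under 0.05, 0 fatty acid genes were higher and 2 lower, and 1 sterol gene was higher and 6 were lower, against 14.0% and 12.8% of all genes. The sterol median was -0.05 and the fatty acid median -0.07, against 0.00 over all genes.

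Insig1 encodes a sterol-sensing anchor of the endoplasmic reticulum and is itself a target of SREBPs. In LPS/HI its values ran from 10.46 through 10.58 to 10.75, and in Sham from 10.73 through 10.86 to 11.06. The groups overlapped only where the highest LPS/HI sample met the lowest Sham sample, and the difference was -0.27 (SE 0.06, adjusted p = 0.00991). The LPS mean, 10.70, lay in between, with samples at 10.76, 10.69, 10.67, 10.70 and 10.68, of which only the highest lay above the LPS/HI range. NaCl/HI samples ran from 10.50 through 10.61 to 10.84. Sham had the highest mean, 10.87 ± 0.11 (SD, n = 6), and the means of the 3 treated groups, from 10.59 to 10.70, did not differ from each other by a called amount. Neither the difference of LPS from Sham, -0.16 (SE 0.06, adjusted p = 0.0755), nor that of NaCl/HI from Sham was called. After quantile normalization the first was called (-0.19, adjusted p = 0.0392), as it was with degrees of freedom not lowered for the surrogate variables (adjusted p = 0.0429). Without NaCl/HI replicate 4 the second was called (-0.26, SE 0.06, adjusted p = 0.0261).

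The other regulators were flatter. Insig2, the second Insig protein, ran from 7.42 through 7.56 to 7.64 in LPS/HI and from 7.38 through 7.47 to 7.57 in Sham, with NaCl/HI from 7.28 through 7.49 to 7.56 and LPS at 7.58, 7.56, 7.60, 7.63 and 7.49. No difference of Insig2 was called, the lowest adjusted p of its pairs being 0.275. Srebf2, the SREBP that mainly drives the sterol genes, ran from 11.68 through 11.85 to 11.99 in LPS/HI and from 11.93 through 12.01 to 12.10 in Sham, a difference of -0.17 that was not called (SE 0.06, adjusted p = 0.0803). Its values were 12.04, 12.01, 11.98, 12.12 and 12.03 in LPS and ran from 11.75 through 11.91 to 12.10 in NaCl/HI, so that all groups overlapped, LPS/HI and LPS only at their edges. Scap, the escort protein, had group means between 11.30 and 11.35, with Sham from 11.27 through 11.28 to 11.35, LPS at 11.32, 11.37, 11.39, 11.35 and 11.26, NaCl/HI from 11.27 through 11.36 to 11.44 and LPS/HI from 11.17 through 11.38 to 11.45. Srebf1, the SREBP that mainly drives the fatty acid genes, ran from 11.72 through 11.74 to 11.91 in Sham, from 11.79 through 11.96 to 12.03 in NaCl/HI and from 11.57 through 11.81 to 11.97 in LPS/HI, and was 11.62, 12.01, 11.91, 11.71 and 11.82 in LPS. Its highest mean, 11.94 ± 0.08 (SD, n = 6) in NaCl/HI, was 0.16 above Sham (SE 0.07, adjusted p = 0.288). No difference of Scap or Srebf1 was called, and all of their groups overlapped.

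**Figure D2:**
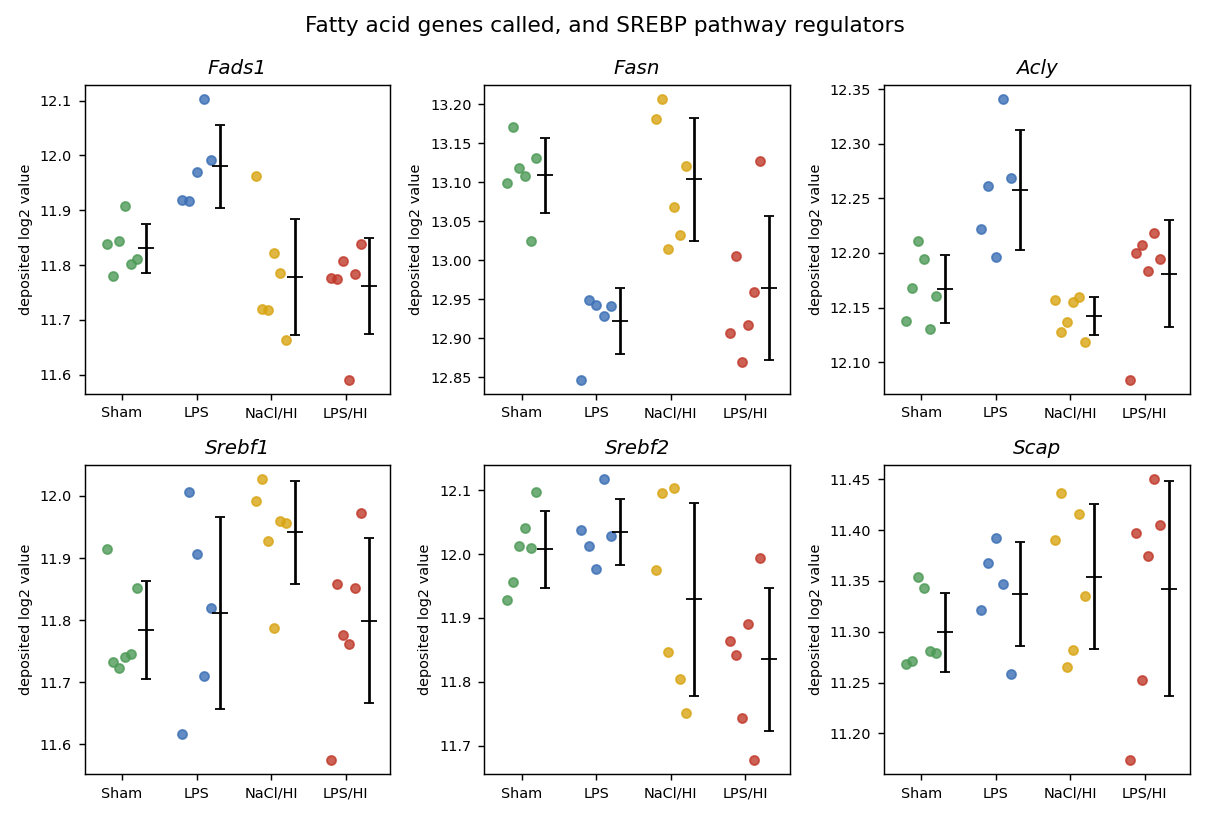
Deposited log2 values of the 3 fatty acid genes called in at least 1 comparison (Fads1, Fasn, Acly) and of the regulators Srebf1, Srebf2 and Scap, by group (each point is a sample, bars are mean and SD, vertical axes differ and do not start at 0). All 5 LPS samples of Fasn lie below all Sham and NaCl/HI samples, whereas the groups of Scap, with means from 11.30 to 11.35, overlap.

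Among the sterol genes outside the naming rule, Idi1 was picked out after its values were seen. Its difference between LPS/HI and Sham was -0.28 (SE 0.09, adjusted p = 0.0527), just outside the threshold, with LPS/HI from 8.86 through 8.97 to 9.02 and Sham from 9.03 through 9.21 to 9.50, which did not overlap. Hmgcs1, which forms the precursor of mevalonate, differed by -0.20 (SE 0.07, adjusted p = 0.0631). In the wider lists 4 of 15 further sterol metabolism genes were called higher (Lbr, Acat1 and Soat1 among them) and 1 lower (Ggps1), and 1 of 26 further fatty acid genes was higher (Acsl5, 0.17, SE 0.04, adjusted p = 0.015). Of the liver X receptor side 0 of 6 were called. Of 8 neutrophil markers 3 were called higher here, S100a8, S100a9 and Mmp8, while Ngp of the same list went the other way (-0.58, not called). The list's centred mean ran from -0.13 to 0.81 in LPS/HI and from -0.20 to 0.21 in Sham, and the neutrophil marker Elane had group means from 0.29 to 0.36. Of the astrocyte genes 1 of 6 was called higher, Gfap, and 0 of 10 microglial and 0 of 12 oligodendrocyte lineage genes were called. Of 6 neuronal genes 2 were lower, Snap25 (-0.64, SE 0.09, adjusted p = 0.00103) and Syt1, of 7 monocyte and macrophage genes 1 was higher (Plac8) and 1 lower (Lyve1), and of 5 endothelial genes 1 was higher (Pecam1). The counts of called genes in the wider and marker lists stand beside 5.3% of all genes called higher and 3.48% lower. The part of these cells in the difference of Insig1 was not tested.

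Between LPS/HI and LPS, which share the lipopolysaccharide dose, 0 of 23 sterol genes were called in the limma fit, with 0 higher and 5 lower at an unadjusted p under 0.05, against 8.58% and 6.88% of all genes. The sterol count was 3 with degrees of freedom not lowered for the surrogate variables, and 1 without the lowest 25% of genes, after quantile normalization or without NaCl/HI replicate 4. Of the 9 fatty acid genes 0 were called higher and 1 lower, Fads1. Across all genes 1.22% were called higher and 0.719% lower. The sterol differences were below 0 for 21 of 23 genes, with a median of -0.09, against 49.0% of all genes below 0 and a median of 0.00. All 7 genes of the mevalonate arm and all 3 of the squalene and lanosterol steps had differences below 0, none of them called. Among the genes called elsewhere the differences were -0.20 for Mvk, -0.18 for Acat2 (SE 0.05, adjusted p = 0.0708) and, further down the pathway, -0.21 for Dhcr7 (SE 0.06, adjusted p = 0.0772). The fatty acid median was -0.01.

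Fads1 had log2 values of 11.92, 11.92, 11.97, 12.10 and 11.99 in LPS and ran from 11.59 through 11.78 to 11.84 in LPS/HI. The groups did not overlap, and the difference was -0.22 (SE 0.05, adjusted p = 0.0375). This call rested on single samples, since leaving out 1 library ended it in 8 of 23 cases, with the highest adjusted p, 0.139, without LPS replicate 4. It was also lost without any 1 of replicates 2, 3 and 5 of the LPS group, or 1, 2, 4 and 5 of the LPS/HI group, in a fit of only the groups compared (adjusted p = 0.145) and after quantile normalization (adjusted p = 0.0612). Fads2, the neighbouring desaturase of the same pathway, had group means between 10.91 and 10.95 and no called difference. In the wider lists 1 of 26 fatty acid genes was called, Tecr, which was lower (-0.21, SE 0.04, adjusted p = 0.00832), and 0 of 15 sterol genes. Of 8 neutrophil markers 0 were called, with a median difference of 0.66 and 6 higher at an unadjusted p under 0.05, and the list's centred mean ran from -0.44 to 0.06 in LPS. Besides, 1 of 6 neuronal genes was called higher (Stmn2, adjusted p = 0.0343), 1 of 7 monocyte and macrophage genes lower (Plac8, adjusted p = 0.00883) and 1 of 5 endothelial genes higher (Flt1, adjusted p = 0.015). The part of these cells in the difference of Fads1 was not tested.

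LPS/HI and NaCl/HI, which differ only by the lipopolysaccharide, gave 0 calls among the 32 genes in the limma fit. At an unadjusted p under 0.05, 2 sterol genes were higher and 0 lower, and 0 fatty acid genes were higher and 3 lower, against 6.47% and 4.17% of all genes. Over all genes 0.153% were called higher and 0.0493% lower. The sterol median was 0.02, with Tm7sf2, a reductase of the sterol ring, highest at 0.14 (SE 0.08, adjusted p = 0.564), and the fatty acid median was -0.02, with Srebf1 lowest at -0.14 (SE 0.07, adjusted p = 0.453). The wider lists gave 0 calls of 15 and 0 of 26.

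LPS and NaCl/HI were each given 1 of the insults. Of 23 sterol genes 4 were called higher in LPS, Mvk, Acat2, Dhcr7 and Stard4, and none lower. Across all genes 5.32% were called higher and 3.66% lower. At an unadjusted p under 0.05, 8 sterol genes were higher and 0 lower, against 12.2% and 10.8% of all genes. The sterol differences were above 0 for 21 of 23 genes, with a median of 0.11, against 48.8% of all genes above 0 and a median of 0.00. Of the 9 fatty acid genes 2 were called higher, Fads1 and Acly, and 1 lower, Fasn. This comparison shares its LPS samples with that of LPS against Sham, so that the calls of Mvk, Dhcr7 and Fasn in both are not independent.

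Acat2 encodes the cytosolic thiolase that joins acetyl-CoA units at the entry to the sterol pathway. Its values in LPS were 9.48, 9.49, 9.49, 9.58 and 9.43, and in NaCl/HI they ran from 9.11 through 9.22 to 9.26. No samples overlapped, and the difference was 0.29 (SE 0.05, adjusted p = 0.000992), a fold of 1.22. Sham ran from 9.22 through 9.41 to 9.46 and LPS/HI from 9.19 through 9.32 to 9.41, between the other groups. Mvk differed by 0.33 in this comparison (SE 0.05, adjusted p = 0.000417), and Dhcr7 by 0.27 (SE 0.06, adjusted p = 0.0103). Stard4, which carries cholesterol between membranes, was 9.64, 9.48, 9.51, 9.66 and 9.63 in LPS and ran from 9.29 through 9.38 to 9.52 in NaCl/HI. These groups overlapped, and the difference of 0.19 (SE 0.06, adjusted p = 0.0452) lost its call on leaving out 1 library in 14 of 23 cases, with the highest adjusted p, 0.118, without LPS replicate 4. Stard4 ran from 9.38 through 9.58 to 9.71 in Sham and from 9.35 through 9.38 to 9.51 in LPS/HI, so that the means of the non-HI groups, 9.56 and 9.59, lay above those of the HI groups, 9.40 and 9.41.

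Fads1 was higher in LPS than in NaCl/HI by 0.20 (SE 0.05, adjusted p = 0.0207), where NaCl/HI ran from 11.66 through 11.75 to 11.96 and overlapped with LPS. Without LPS replicate 4 the call was lost (adjusted p = 0.0703). In Sham it ran from 11.78 through 11.82 to 11.91. Acly was 12.22, 12.26, 12.20, 12.34 and 12.27 in LPS and ran from 12.12 through 12.15 to 12.16 in NaCl/HI, from 12.13 through 12.16 to 12.21 in Sham and from 12.08 through 12.20 to 12.22 in LPS/HI. All LPS samples lay above all NaCl/HI samples, and the small difference of 0.12 (SE 0.03, adjusted p = 0.0405) lost its call on leaving out 1 library in 15 of 23 cases, with the highest adjusted p, 0.124, again without LPS replicate 4. Fasn was lower by 0.18 on the log2 scale (-0.18, SE 0.05, adjusted p = 0.0212), with a call that was lost without LPS replicate 1 (adjusted p = 0.0599) or NaCl/HI replicate 1 (adjusted p = 0.0525). In a fit of only the groups compared, which had fewer samples and the same lowering of degrees of freedom, none of the 3 fatty acid genes was called (adjusted p = 0.156 for Fads1, 0.32 for Acly and 0.157 for Fasn). Of the sterol genes, Dhcr7 (adjusted p = 0.102) and Stard4 (adjusted p = 0.178) lost their calls there. After quantile normalization the calls of Stard4 (adjusted p = 0.0978) and Acly (adjusted p = 0.118) were lost. The count of fatty acid genes called was 1 without LPS replicate 1 or NaCl/HI replicate 1.

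The astrocyte list had 2 of 6 genes called higher in LPS than in NaCl/HI, Aldoc and Aldh1l1. Gfap of the same list went the other way and further, with means of 10.78 in LPS and 11.39 in NaCl/HI (difference -0.60, not called). The centred mean of the list ran from -0.39 to 0.39 in NaCl/HI. Of the 12 oligodendrocyte lineage genes 0 were called by limma, with a median difference of -0.44 between LPS and NaCl/HI, 2 higher and 6 lower at an unadjusted p under 0.05 (12.2% and 10.8% of all genes), and a centred mean that ran from -0.32 to 1.19 in NaCl/HI. The mean of this list was highest in NaCl/HI (0.19, n = 6) through 1 library, since without replicate 6, the sample at 1.19, it was -0.02 (n = 5), against 0.01 in Sham, 0.00 in LPS/HI and -0.24 in LPS. The median difference without it was -0.23, with 0 genes called, and 3 higher and 3 lower at an unadjusted p under 0.05. Without that library the calls of Mvk, Acat2, Dhcr7, Fads1 and Fasn held and those of Stard4 (adjusted p = 0.072) and Acly (adjusted p = 0.0723) were lost. Other markers were called too, 0 of 10 microglial genes higher and 3 lower, 0 of 6 neuronal genes higher and 1 lower (Stmn2), and 0 of 8 neutrophil genes higher and 1 lower (Ngp). Of 7 monocyte and macrophage genes 1 was higher, Plac8 (1.26, SE 0.13, adjusted p = 7.17e-06), and 1 lower, Lyve1, and of 5 endothelial genes 1 was higher, Pecam1. The part of these cells in the sterol and fatty acid differences was not tested. In the wider lists 2 of 15 sterol genes were called higher, Lbr (0.24, SE 0.05, adjusted p = 0.00235) and Acat1 (0.18, SE 0.04, adjusted p = 0.0159), and 1 lower, Npc1 (-0.19, SE 0.04, adjusted p = 0.00804). Of 26 fatty acid genes 5 were called higher, led by Tecr (0.29, SE 0.04, adjusted p = 4.2e-05), Acsl5 (0.25, SE 0.04, adjusted p = 0.000556) and Acss2 (0.37, SE 0.07, adjusted p = 0.00237). Of the liver X receptor side 3 of 6 were called lower, the cholesterol exporters Abca1 and Abcg1 and the ubiquitin ligase Mylip. The counts of called genes in these lists and among the markers stand beside 5.32% of all genes called higher and 3.66% lower.

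**Figure D3:**
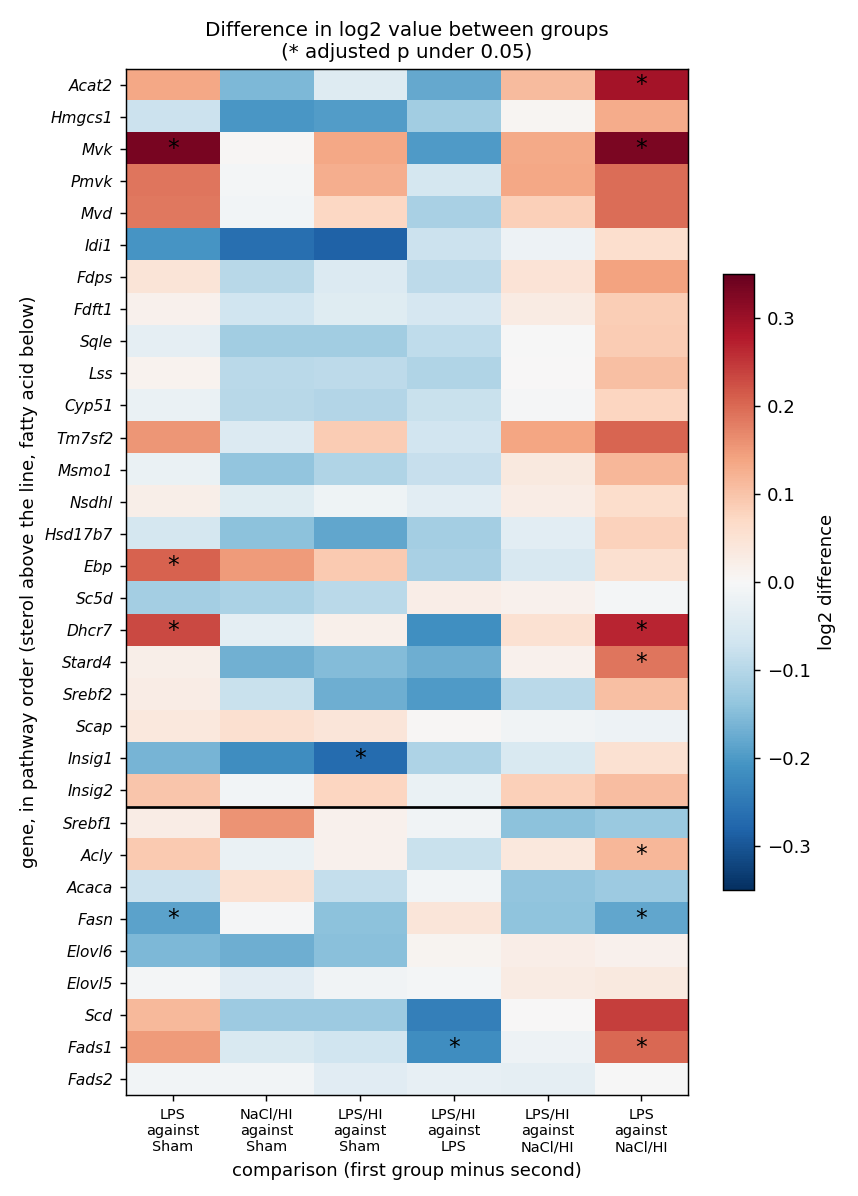
Log2 difference (colour, first group minus second) of the 32 genes in the 6 pairs of groups, sterol genes above the line and fatty acid genes below, in pathway order, with an asterisk where the adjusted p was under 0.05. The column of LPS against NaCl/HI is above 0 for 21 of 23 sterol genes and holds asterisks for 7 genes, and the column of NaCl/HI against Sham holds none.

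The interaction of lipopolysaccharide with HI, that is the difference between LPS/HI and NaCl/HI less the difference between LPS and Sham, was called for 0 of 23 sterol and 0 of 9 fatty acid genes in the limma fit. Over all genes 0.365% were called above 0 and 0.719% below. At an unadjusted p under 0.05, 0 sterol genes were above 0 and 2 below, and 0 fatty acid genes above and 1 below, against 7.65% and 7.44% of all genes. Ebp had the lowest value, -0.26 (SE 0.08, adjusted p = 0.112), and Mvk had -0.20 (SE 0.07, adjusted p = 0.193). With degrees of freedom not lowered for the surrogate variables 1 sterol gene was called. Of the wider sterol list 1 of 15 was called, Soat1 (-0.33, SE 0.08, adjusted p = 0.0431). Among the markers 1 of 5 endothelial genes was called above 0 (adjusted p = 0.0366, limma). Of 8 neutrophil genes 0 were called, with a median of 0.75, and 5 above and 1 below 0 at an unadjusted p under 0.05. The part of these cells in the value of Soat1 was not tested.

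Across all 4 groups, the mean was highest in LPS for 14 of 23 sterol genes, in Sham for 8, in NaCl/HI for 1 and in LPS/HI for 0. It was lowest in NaCl/HI for 13, in LPS/HI for 6, in Sham for 3 and in LPS for 1. The order of the groups was not counted over all genes. Sterol genes also varied together from sample to sample (below), so that neither these counts nor those of signs above are counts of separate observations. The mean over the 23 genes, each centred on its overall mean, reached 0.07 ± 0.06 (SD, n = 5) in LPS samples. It was 0.03 ± 0.05 (SD, n = 6) in Sham samples, and the HI groups lay below with -0.03 ± 0.06 (SD, n = 6) for LPS/HI, then -0.06 ± 0.06 (SD, n = 6) for NaCl/HI. The samples of neighbouring groups in this order overlapped. The 9 fatty acid genes were spread over a narrower range, from a mean of 0.02 (SD 0.03, n = 6) in Sham down to -0.04 (SD 0.04, n = 6) in LPS/HI, and their highest mean was in Sham for 4 genes, in LPS for 3 and in NaCl/HI for 2.

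**Figure D4:**
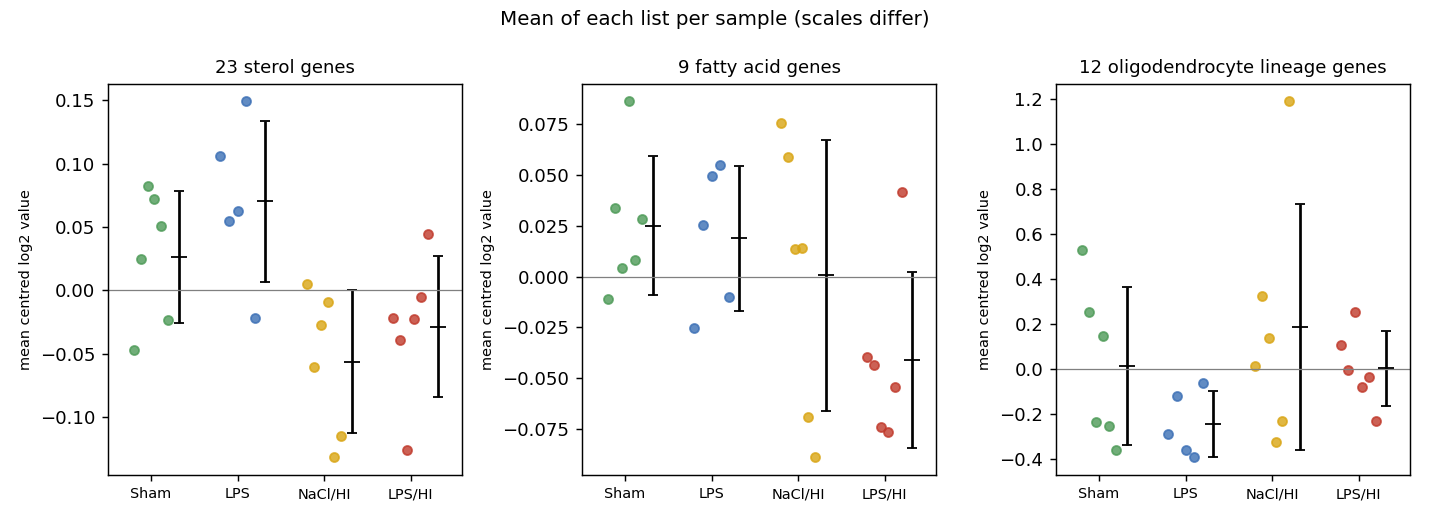
Mean per sample of the 23 sterol genes, the 9 fatty acid genes and the 12 oligodendrocyte lineage markers, each gene centred on its mean over all 23 samples (log2 units; points are samples, bars are mean and SD, vertical axes differ). The sterol means run from -0.13 to 0.00503 in NaCl/HI and from -0.02 to 0.15 in LPS, and 1 NaCl/HI sample stands at 1.19 in the oligodendrocyte panel.

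Apart from the groups, the sterol genes varied together from sample to sample. With the group means subtracted, Pearson's r over the 23 samples had a median of 0.29 over the 253 pairs of sterol genes (Spearman's rho 0.32), against 0.003 over all pairs of genes in the table. It was above 0.5 for 66 pairs and below 0 for 47. Without LPS/HI replicate 3 and LPS replicate 5, the samples farthest from the median of the sterol mean, the median r was 0.22. The highest pair was Cyp51 with Sc5d, demethylase and desaturase of the late pathway (r = 0.88), followed by Hmgcs1 with the squalene epoxidase gene Sqle (0.87), and Sqle with Sc5d (0.85). Hmgcs1 with Msmo1 reached 0.84, the thiolase gene Acat2 with Fdps 0.83 and Lss with Srebf2 0.82. Cyp51 had the highest correlation with the mean of the other sterol genes (r = 0.90, rho 0.88), and with all samples Insig2 had the lowest (r = 0.11, rho 0.16). Without the 2 samples left out above, Cyp51 stayed highest (r = 0.87), while Scap was lowest (r = 0.0013) and Insig2 had 0.035.

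Mvk, Pmvk and Mvd, which act in sequence, had r = 0.79 for Mvd with Pmvk, 0.73 for Mvk with Mvd and 0.56 for Mvk with Pmvk. With the mean of the other sterol genes Mvk had r = 0.19, Pmvk 0.33 and Mvd 0.39. Beside the pair of Lss with Srebf2, r was 0.80 for Lss with Fdft1 and 0.78 for Fdft1 with Srebf2, while with that mean Fdft1 had 0.19, Lss 0.35 and Srebf2 0.44. The 36 pairs of fatty acid genes had a median r of 0.15, and the 207 pairs of a sterol with a fatty acid gene had 0.19. Srebf1 had r = -0.26 (rho -0.39) with the mean of the sterol genes. These are descriptions over samples that share the removal of the surrogate variables and that differ in cell makeup and in depth, which the table does not give.

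**Figure D5:**
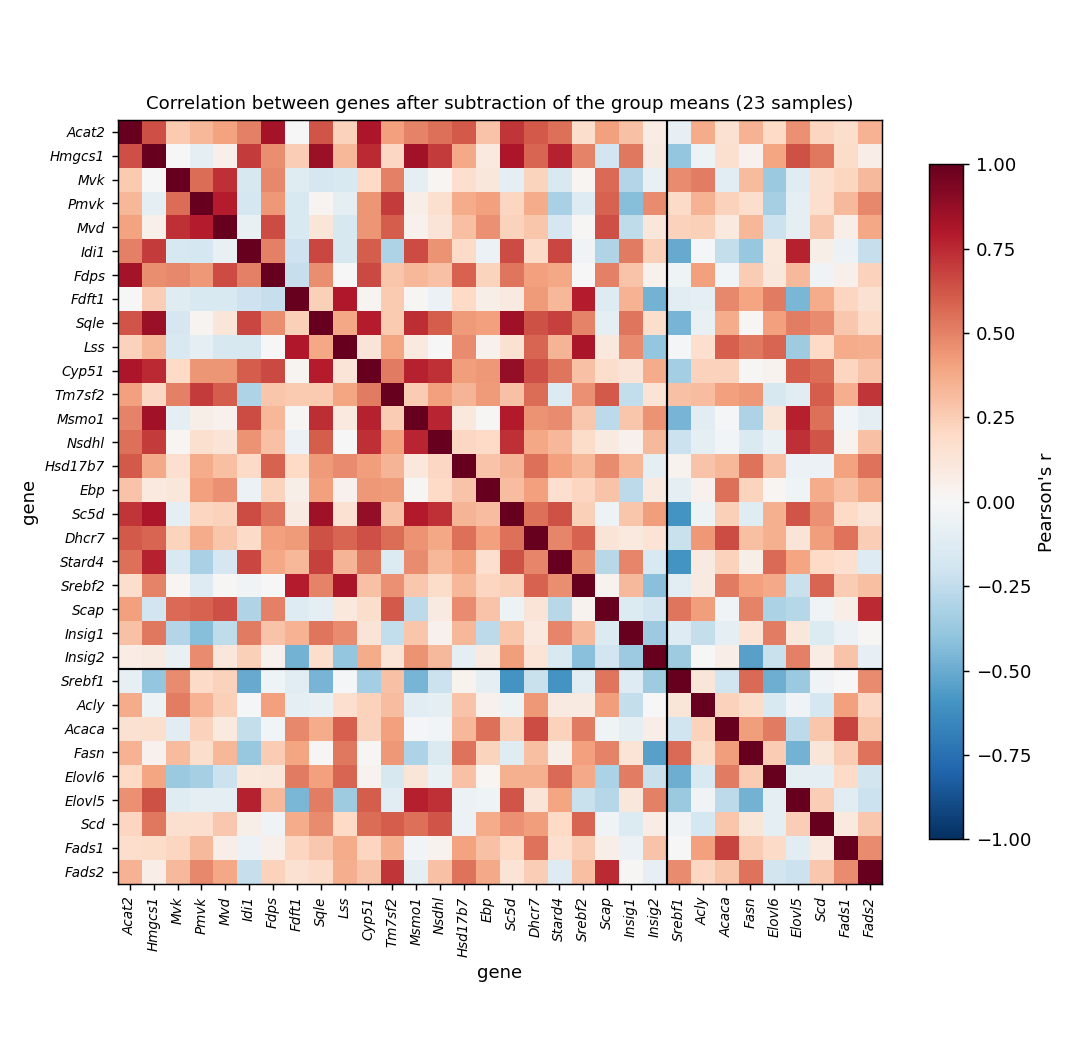
Pearson's r between the 32 genes over the 23 samples after subtraction of the group means (colour), sterol genes above and to the left of the lines. The block of Hmgcs1, Sqle, Cyp51, Msmo1 and Sc5d is dark red, with r of 0.88 for Cyp51 with Sc5d, and the fatty acid block is paler, with a median of 0.15.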

How the data were processed

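RNA of bead-isolated rat microglia (23 samples, 4 groups taken from the sample titles) was sequenced by the authors. Their reads were quantified with kallisto 0.48.0 on mRatBN7.2 per the submitters' notes and the study's methods, genes with few counts were left out, and DESeq2 rlog values were corrected for 3 surrogate variables. The deposited values are these log2 values, ranging from -1.35 to 23.4; no counts, so no depth, were used here. Correction for surrogate variables removes variation from the values, and how it treated any variation tied to the groups is not known here.

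All 20301 genes and all samples entered 1 limma 3.58.1 fit (R 4.3.3) with a variance trend. For the 3 surrogate variables 16 in place of 19 residual degrees of freedom were used, since the values held only 16 dimensions after the group means were subtracted. Tests were two-sided, with Benjamini-Hochberg adjustment over all genes. Samples are separate animals or pools of animals. The fit was tested on simulated data in which the removed factors were unrelated to the groups. There, wrong signs and the share of false calls stayed within the limits set. No limit was set on the share of changed genes recovered, so that the test does not show how often differences as small as those here are found. An earlier version of that test, with factors that could lie along the groups and that were removed only within groups, gave mostly false calls; it was then rewritten. Whether the authors' surrogate variables were tied to the groups was not tested, and if they were, the p-values here are too low.

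The 32 genes, the wider lists and the marker lists were chosen with earlier results of these data known. Levels were given in full for the 5 regulators and for every called gene. The rule on promoters, to print those with TCACNCCAC, gave none, so that 3 others and the shorter CACNCCAC were chosen after this was seen, as was the grouping of the genes by role. Genes with 2 windows were taken with the first. Shares were computed with Python 3.11.15 and pandas 2.3.3. Alternatives were fits without lowered degrees of freedom, without the variance trend, with only the groups compared, with the replicate number or the library name series as a term, without the lowest 25% of genes, after quantile normalization, with a fold change above 2, and without each library. The fits of only the groups compared kept the lowering by 3 degrees of freedom on fewer samples, and so had less power. The part of this in the calls lost there was not tested. Wider lists held 16 sterol, 27 fatty acid and 6 liver X receptor genes; markers of neurons, monocytes with border-associated macrophages and endothelium were also followed. The oligodendrocyte lineage mean and median difference without NaCl/HI replicate 6 were added after seeing the data. Some genes of the wider and marker lists are not reported here by name.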

Additional observations from a re-analysis of the deposited data

Results flagged for a closer look

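Single samples stood apart from the others of their group in 9 of 136 combinations of a gene (or list mean) and a group, by Dixon's criterion, which flags about 1 in 20 by chance. Dhcr7 was highest in LPS replicate 4 (9.88, next 9.64) and Acaca in the same sample (11.8, next 11.6). Leaving that sample out ends the call of Dhcr7 against Sham (adjusted p = 0.0562, limma) and not that against NaCl/HI. Pmvk was lowest in LPS replicate 5 (7.87, next 8.10). Fasn was lowest in LPS replicate 1 (12.8, next 12.9), without which its call against Sham stayed and that against NaCl/HI was lost (adjusted p = 0.0599, limma). Hsd17b7 was highest in Sham replicate 3 (7.02, next 6.79) and Tm7sf2 in Sham replicate 4 (7.21, next 6.93). Fads1 was lowest in LPS/HI replicate 4 (11.6, next 11.8), without which its call against LPS was lost (adjusted p = 0.0825, limma). Acly was lowest in LPS/HI replicate 1 (12.1, next 12.2). The mean of the fatty acid genes was highest in LPS/HI replicate 6 (0.041, next -0.04).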

How the results depend on the processing

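With residual degrees of freedom not lowered, the sterol genes called rose to 7 in LPS against Sham, 6 in LPS/HI against Sham, 3 in LPS/HI against LPS and 1 in the interaction, and the fatty acid genes to 3 and 1 in the first pair of these comparisons. With only the groups compared, the sterol count was 1 in LPS against Sham and 2 in LPS against NaCl/HI, and the fatty acid count 0 in LPS/HI against LPS and 0 in LPS against NaCl/HI. Without the lowest 25% of genes, LPS against Sham had 2 fatty acid genes, LPS/HI against Sham 2 sterol and 1 fatty acid, and LPS/HI against LPS 1 sterol. After quantile normalization LPS/HI against Sham had 4 sterol genes, and LPS/HI against LPS 1 sterol and 0 fatty acid. With a fold change above 2 every count was 0. The cause of these shifts was not tested. Without the variance trend, and with the library name series as a term, no count moved by over 1.5 times. Replicate numbers do not pair the samples (9 of 33 same-numbered pairs correlated above 0.1, and 5 of 23 samples correlated best with their own number); the fit with a replicate block had 0 fatty acid genes in LPS/HI against LPS and 0 in LPS against NaCl/HI, and moved no other count by over 1.5 times.

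Leaving out 1 library at a time, the sterol counts ranged from 1 to 5 in LPS against Sham (lowest or highest without LPS replicate 4 or 5), 0 to 1 in NaCl/HI against Sham (NaCl/HI replicate 4), 1 to 3 in LPS/HI against Sham, 0 to 1 in LPS/HI against LPS and 3 to 5 in LPS against NaCl/HI. The fatty acid counts ranged from 1 to 2, 0 to 0, 0 to 1, 0 to 1 and 1 to 3 in the same comparisons. Both were 0 throughout in LPS/HI against NaCl/HI and in the interaction. The calls of Mvk, Acat2, Insig1, Dhcr7 against NaCl/HI and Fasn against Sham held without each library. Without LPS/HI replicate 6 Srebf2 was called lower in LPS/HI than in Sham (-0.20, adjusted p = 0.0485, limma), and without NaCl/HI replicate 4 Insig1 was called lower in NaCl/HI than in Sham (-0.26, adjusted p = 0.0261, limma). Only uncalled differences near 0 turned sign, to 0.0050 for the interaction of Insig2 with the replicate block and, after quantile normalization, to 0.0038 for Srebf1 in LPS/HI against LPS and -0.0017 for Srebf2 in LPS against Sham. Without 1 library, the uncalled differences whose sign turned ranged, for Insig2, from -0.028 to 0.027 in NaCl/HI against Sham, from -0.044 to 0.0016 in LPS/HI against LPS and from -0.050 to 0.011 in the interaction. For Srebf1 they ranged from -0.021 to 0.076 in LPS against Sham, from -0.020 to 0.060 in LPS/HI against Sham and from -0.061 to 0.036 in LPS/HI against LPS. For Scap they ranged from -0.017 to 0.038 in LPS/HI against LPS, from -0.033 to 0.022 in LPS/HI against NaCl/HI and from -0.035 to 0.0030 in LPS against NaCl/HI.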
